A study of Homo sapiens with 6 samples.

Results

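SMARCC2 binding was compared between MR49F and LNCaP cells from 1 ChIP-seq peak list per line. LNCaP is a human prostate adenocarcinoma line whose growth depends on the androgen receptor. MR49F is a derivative of LNCaP that is resistant to enzalutamide, an antagonist of that receptor. MR49F cells were kept in medium with 10 µM enzalutamide, and the labels name no drug for LNCaP cells, so the resistant line and the presence of the drug cannot be told apart. Chromatin of both lines was crosslinked with 2 mM disuccinimidyl glutarate for 45 min and 1% formaldehyde for 10 min, and was precipitated with 4 µg of antibody. The series also holds 1 BRG1 library per line, prepared in the same way, and 2 inputs that were not analysed here. The MR49F list held 47615 SMARCC2 peaks and the LNCaP list 25706, of 153803 peaks in the 4 lists of the series. MR49F and LNCaP peaks with at least 1 bp in common were merged, which gave 53289 regions that were shared, MR49F-only or LNCaP-only. There was 1 library per line, so no value below has a replicate check, no test was possible, and the intervals given cover counting error only. A region without a peak in a line did not reach the peak caller's threshold there, which does not show that the protein was absent.

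SMARCC2, also called BAF170, is a scaffold subunit of the SWI/SNF chromatin remodelling complexes. It pairs with itself or with its paralog SMARCC1 to form the core on which the ATPase module is built, and the ATPase, BRG1 (encoded by SMARCA4) or BRM (encoded by SMARCA2), uses ATP to slide or evict nucleosomes. SWI/SNF holds promoters and enhancers open, and in prostate cells it works at sites that the androgen receptor and FOXA1 also use. SMARCC2 does not read a DNA sequence as a transcription factor does, so its peaks are usually read as sites where a SWI/SNF complex was held.

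The promoters under the strongest peak of each class show the kinds of sequence involved. Each line below gives the 250 bases before a RefSeq start site (GRCh38.p14, the build of the peaks), on the strand of the gene, for the 3 promoters of each class with the highest −log10 q-value. Capitals mark matches, on either strand, to any of 13 short motifs. Among these were the GC box (GGGCGG) and the CCAAT box, whose letters are its name. Others were the TATA motif TATAAA and the forkhead motif TGTTTAC. Receptors for androgens and glucocorticoids share the half-site AGAACA. The GATA motif searched was AGATAA. The CTCF core was given as CCACNAGG. A match describes the letters and is not a binding site.
MR49F-only regions covered the promoters of AMTN, a gene for an enamel protein (chr4:70518319-70518568, plus strand), FKBP5, a chaperone gene induced by androgen and glucocorticoid receptors (chr6:35728584-35728833, minus strand), and SMARCD2, itself a SWI/SNF subunit gene (chr17:63838729-63838978, minus strand).
AMTN: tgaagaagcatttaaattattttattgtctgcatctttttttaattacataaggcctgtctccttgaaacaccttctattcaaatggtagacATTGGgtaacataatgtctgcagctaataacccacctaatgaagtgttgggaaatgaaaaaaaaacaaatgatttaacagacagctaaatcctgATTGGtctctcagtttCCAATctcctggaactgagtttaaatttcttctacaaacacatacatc
FKBP5: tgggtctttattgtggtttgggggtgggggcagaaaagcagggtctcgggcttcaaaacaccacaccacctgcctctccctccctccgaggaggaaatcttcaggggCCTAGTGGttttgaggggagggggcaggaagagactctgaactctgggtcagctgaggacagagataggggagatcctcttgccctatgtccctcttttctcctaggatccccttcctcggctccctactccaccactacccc
SMARCD2: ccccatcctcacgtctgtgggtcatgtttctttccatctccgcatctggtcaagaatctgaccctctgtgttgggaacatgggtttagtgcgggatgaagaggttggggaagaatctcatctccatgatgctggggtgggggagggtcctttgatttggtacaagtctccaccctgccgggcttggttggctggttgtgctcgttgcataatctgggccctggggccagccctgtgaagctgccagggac
LNCaP-only regions overlapped those of MINDY4B (chr3:150905440-150905689, minus strand), VANGL2, a planar cell polarity gene (chr1:160400314-160400563, plus strand), and POPDC1, a gene for a cyclic AMP binding membrane protein (chr6:105136669-105136918, minus strand).
MINDY4B: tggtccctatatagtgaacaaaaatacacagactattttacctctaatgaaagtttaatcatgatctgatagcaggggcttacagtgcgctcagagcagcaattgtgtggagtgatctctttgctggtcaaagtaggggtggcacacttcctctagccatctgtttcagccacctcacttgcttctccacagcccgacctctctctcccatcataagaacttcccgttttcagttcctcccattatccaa
VANGL2: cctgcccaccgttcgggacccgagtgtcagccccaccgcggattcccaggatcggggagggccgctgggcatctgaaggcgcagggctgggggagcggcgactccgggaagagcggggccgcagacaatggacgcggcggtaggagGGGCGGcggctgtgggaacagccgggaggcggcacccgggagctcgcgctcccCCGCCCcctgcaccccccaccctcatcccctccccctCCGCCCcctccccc
POPDC1: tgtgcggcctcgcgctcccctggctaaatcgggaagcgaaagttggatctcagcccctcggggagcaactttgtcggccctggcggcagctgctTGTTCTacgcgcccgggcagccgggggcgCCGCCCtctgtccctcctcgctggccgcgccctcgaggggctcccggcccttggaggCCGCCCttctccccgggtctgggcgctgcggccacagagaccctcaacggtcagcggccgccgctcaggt
Shared regions overlapped those of GHR, the growth hormone receptor gene (chr5:42423189-42423438, plus strand), EHF, an epithelial ETS factor gene (chr11:34632316-34632565, plus strand), and GANC, a glucosidase gene (chr15:42272951-42273200, plus strand).
GHR: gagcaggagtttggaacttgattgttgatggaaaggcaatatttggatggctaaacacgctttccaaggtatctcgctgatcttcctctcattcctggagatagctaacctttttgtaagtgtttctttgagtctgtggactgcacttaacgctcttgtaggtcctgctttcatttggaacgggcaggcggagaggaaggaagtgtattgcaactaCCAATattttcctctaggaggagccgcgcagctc
EHF: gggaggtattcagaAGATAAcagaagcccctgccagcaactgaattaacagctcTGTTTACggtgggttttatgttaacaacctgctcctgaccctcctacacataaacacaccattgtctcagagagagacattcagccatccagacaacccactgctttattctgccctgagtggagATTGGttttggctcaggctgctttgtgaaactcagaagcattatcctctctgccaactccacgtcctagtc
GANC: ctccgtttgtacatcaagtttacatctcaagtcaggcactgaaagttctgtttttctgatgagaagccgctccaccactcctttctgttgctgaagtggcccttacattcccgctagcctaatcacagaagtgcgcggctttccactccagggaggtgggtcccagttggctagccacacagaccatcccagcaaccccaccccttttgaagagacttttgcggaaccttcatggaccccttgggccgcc

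The overlap was partial at 4 of these 9 promoters. Of the 250 bases printed, the LNCaP peak held 78 at MINDY4B and 86 at VANGL2, and the MR49F peak held 12 at GHR and 88 at GANC, while the other 5 promoters lay wholly under a peak. Base composition varied within each class. GC content was 33.2% for AMTN, 57.6% for FKBP5 and 56.4% for SMARCD2 in the MR49F-only class, against 45.6% for MINDY4B, 76.4% for VANGL2 and 72.4% for POPDC1 in the LNCaP-only class. It was 46.4% for GHR, 47.6% for EHF and 53.6% for GANC. The MR49F peak at SMARCD2 was 5086 bp wide with 100 tags stacked at its summit, 2 bp inside the gene from the start. At FKBP5 the MR49F peak was 4218 bp wide, with 121 tags at a summit 441 bp into the gene. The LNCaP peak at VANGL2 was 740 bp wide with 44 tags at a summit 285 bp into the gene. The EHF promoter lay in the widest region of all, with the MR49F summit at -400 bp and the LNCaP summit at -366 bp relative to the start. At GHR and GANC the MR49F peak, of 4106 and 4099 bp, had its summit well outside the window, at 3317 bp (GHR) and -1917 bp (GANC) relative to the start, and the LNCaP peak of the region did not reach the window.

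Most SMARCC2 regions were called in a single line, and most of those in MR49F. Of the 53289 regions, 28287 (53.1%) were MR49F-only, 5876 (11%) were LNCaP-only and 19126 (35.9%) were shared. LNCaP peaks overlapped 40.6% of MR49F peaks (Wilson 95% interval 40.2 to 41.0), and MR49F peaks overlapped 77.1% of LNCaP peaks (76.6 to 77.7). Read totals were not given in the sources used here, and depth was estimated with the usual MACS2 formulas. Whole tags at each summit and the local background could be solved from the deposited fold and p-value of all MR49F peaks and all but 1 LNCaP peak. The most frequent of the low background values, taken as the floor of each list, was 2.39 tags in MR49F and 3.45 tags in LNCaP. This would make the LNCaP library 1.44 times as deep. The lists differ in length, and the part of length in the balance of the single-line classes was not tested. With only the 25706 strongest MR49F peaks, 11814 regions were MR49F-only, 11221 LNCaP-only and 13847 shared. Lists of equal length give single-line classes of similar size by construction, so these counts cannot decide the part of length. The LNCaP-only class then also holds regions whose MR49F peak was dropped. With a reciprocal overlap of 50% there were 34890 MR49F-only, 12981 LNCaP-only and 12725 shared regions.

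The cells carried peaks at the genes that mark their tissue. All 10 genes of a luminal prostate marker list had peaks in both lines, with 68 peaks in MR49F and 40 in LNCaP. Of 5 hepatocyte markers, 4 had a peak in MR49F (6 peaks) and 2 in LNCaP (2 peaks). Of 5 skeletal muscle markers, 2 had a peak in MR49F (2 peaks) and none in LNCaP. Leukocyte markers had 3 MR49F peaks and 2 LNCaP peaks, and fibroblast markers had 4 and 5 over 5 genes each. Peaks near a gene are not its expression.

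Strong peaks were shared more often than weak ones, in both lists. When each list was divided by −log10 q-value into 5 equal groups, 1906 of the 9523 weakest and 67.6% of the 9523 strongest MR49F peaks overlapped a LNCaP peak. For LNCaP peaks the shares with an MR49F peak were 62.5% in the weakest and 93.9% in the strongest group. Thus 32.4% of the strongest MR49F group had no LNCaP peak, against 6.07% of the strongest LNCaP group with no MR49F peak. Width added to strength. In the weakest MR49F group, 24.8% (23.6 to 26.1) of the wider 50% of peaks and 15.2% (14.2 to 16.3) of the narrower 50% were shared. In the strongest MR49F group these shares were 77.9% (76.7 to 79.0) and 57.3% (55.9 to 58.7). In LNCaP they were 69.9% and 55.1% in the weakest group, and 97.3% and 90.5% in the strongest.

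**Figure D1:**
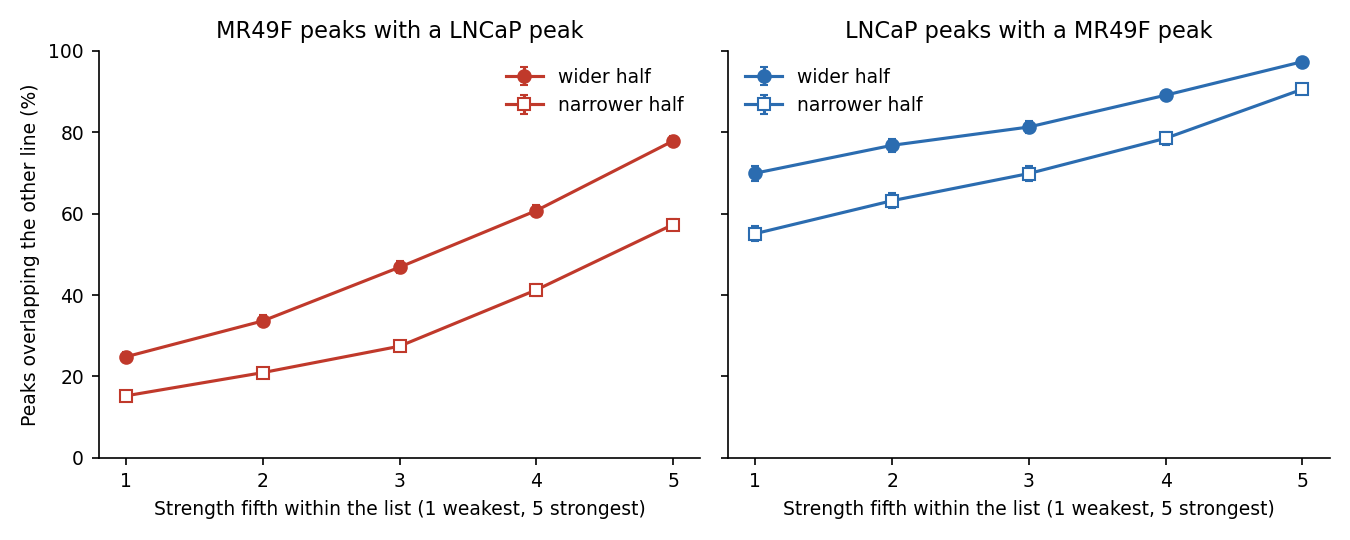
Share of SMARCC2 peaks that overlapped a peak of the other line (y axis, %), by strength within the list (x axis, 5 equal groups by −log10 q-value), for MR49F peaks (left) and LNCaP peaks (right). Filled circles are the wider and open squares the narrower peaks of each group, and bars are Wilson 95% intervals. The wider peaks lie above the narrower in every group of both lists, from 24.8% against 15.2% at the weakest MR49F end to 97.3% against 90.5% at the strongest LNCaP end.

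Single-line peaks were narrow. The median width of MR49F peaks was 639 bp (634 to 643) in MR49F-only regions and 986 bp (977 to 997) in shared regions. For LNCaP peaks it was 527 bp (521 to 533) in LNCaP-only regions and 716 bp (710 to 723) in shared regions. Peaks of 500 bp or less made up 29.8% of the MR49F peaks in MR49F-only regions and 44.2% of the LNCaP peaks in LNCaP-only regions, against 10.0% and 22.8% of the peaks of these lists in shared regions. Both lists had the same minimum width of 350 bp. Broad single-line peaks were mostly MR49F peaks, since 679 MR49F-only peaks (2.40%) and 18 LNCaP-only peaks (0.306%) spanned 2000 bp or more. Summit heights were alike in the single-line classes, with a median of 23 tags in each without adjustment for depth, while peaks in shared regions had a median of 35 tags in MR49F and 30 in LNCaP.

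**Figure D2:**
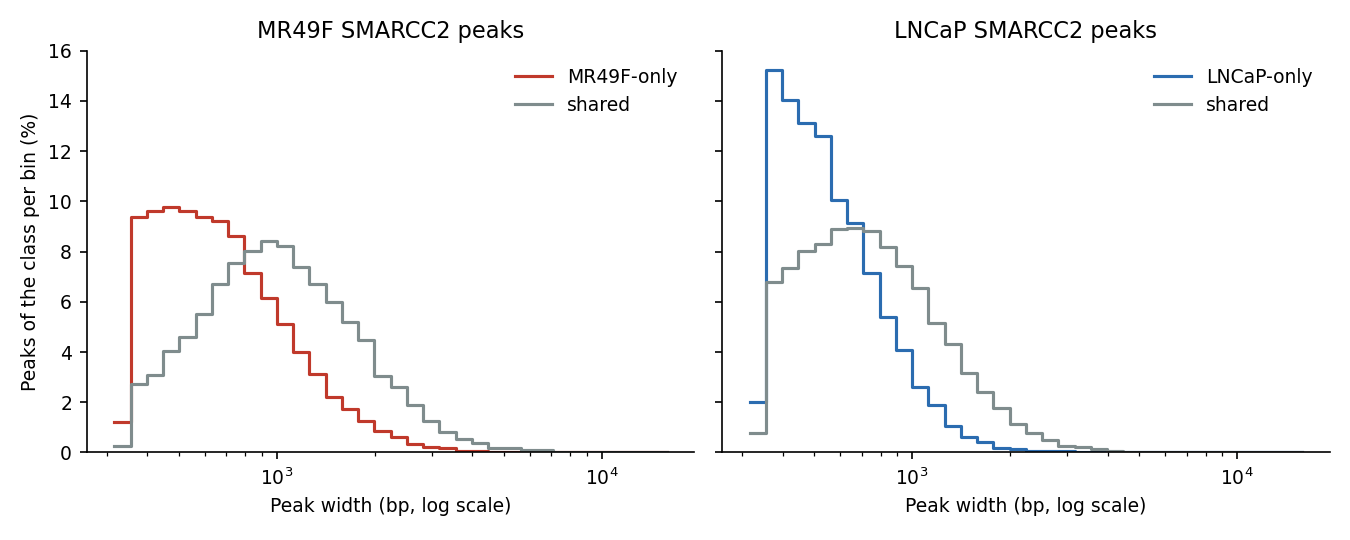
Distribution of SMARCC2 peak width (x axis, bp, log scale) as the share of each class per bin (y axis, %), for MR49F peaks (left) and LNCaP peaks (right). Coloured lines are single-line peaks and grey lines peaks in shared regions. The single-line peaks lie to the left, with medians of 639 bp in MR49F and 527 bp in LNCaP against 986 and 716 bp for peaks in shared regions.

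Where both lines had a peak, the MR49F peak was usually the wider. Of the 19126 shared regions, 18300 held 1 peak of each line, 625 held 1 MR49F peak over several LNCaP peaks, 175 held 1 LNCaP peak over several MR49F peaks and 26 held several of both. In the regions with 1 peak each, the median width was 969 bp in MR49F and 713 bp in LNCaP. The MR49F peak was the wider in 12894 of the 18300 (70.5%), with a median width ratio of 1.302. It spanned the whole LNCaP peak in 44.3% of these regions, whereas the LNCaP peak spanned the MR49F peak in 12.2%, and the edges were staggered in the rest. The MR49F peak was at least 2 times as wide in 3827 regions and the LNCaP peak in 614. How depth and fragment length bear on this difference was not tested.

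The 5 broadest regions all lay inside genes. The widest, 18267 bp at EHF (chr11:34624694-34642960), was shared, with 266 tags at its MR49F summit and 205 at its strongest LNCaP summit. A region of 13150 bp lay in NFIX, a nuclear factor I gene (chr19:13013509-13026658), with 29 MR49F tags and 36 LNCaP tags. The widest MR49F-only region spanned 11565 bp of PMEPA1, an androgen-induced gene for a membrane protein that restrains TGF-β signalling (chr20:57688781-57700345). It was broad but low, with 38 tags at its summit. Shared regions of 11035 bp in ABHD2 and 9461 bp in CTBP2 complete the 5 broadest. The next widest MR49F-only regions were not among the 5. TLE3, a corepressor gene, carried one of 7852 bp at a start site with 55 tags (chr15:70091591-70099442). Another, of 7581 bp, lay between genes near FRMD8 with 48 tags.

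The strongest regions called in MR49F alone had higher summits than the strongest called in LNCaP alone, in tags not adjusted for depth. These lead classes of 28287 MR49F-only and 5876 LNCaP-only regions, whose median summits were 23 tags each. The top MR49F-only region lay inside SLC38A4, an amino acid transporter gene (chr12:46792614-46793695), with 339 tags and a deposited fold of 74.7 over local background. The local background ratio of this window of 10 Mb was 1.26, where the ratio is MR49F over LNCaP with each list set to its autosomal median. It was followed by regions in WWC1, a Hippo pathway gene (335 tags, fold 33.5), NFIB, a nuclear factor I gene (253 tags, fold 51.1) and AKR1D1, the steroid 5β-reductase gene (252 tags, fold 41.3). The next lay between genes 53.8 kb from an end of IQUB (255 tags, fold 34.1). All 5 also had an MR49F BRG1 peak, and only the WWC1 region had a LNCaP BRG1 peak.

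In LNCaP the strongest region without an MR49F peak lay inside ZNF277, a zinc finger gene (chr7:112267981-112268902), with 103 tags and a deposited fold of 16.8. A region 22.6 kb from CCNL1, the cyclin L1 gene, had 107 tags (fold 12.98), and one 10.4 kb from L3MBTL3, a methyl-lysine reader gene, had 77 tags (fold 12.9). The region near EFR3A had 67 tags (fold 14.7) and that in TRIM48 had 64 tags (fold 12.3). All 5 had a LNCaP BRG1 peak, and only the region near CCNL1 had an MR49F BRG1 peak. These 5 lay in windows with local background ratios of 0.831 to 1.09. Fold values come from separate runs of the peak caller, so the folds of the lists are set side by side and not compared.

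The tallest summit of each list, with 1141 tags in MR49F and 1161 in LNCaP, lay in a shared region, and both were among the 6 shared regions with the highest MR49F −log10 q-values. In ZBTB16, the gene of the zinc finger factor PLZF (chr11:114177176-114180952), the summit had 1141 tags in MR49F and 435 in LNCaP. A region 13.2 kb from PARP15 (chr3:122650965-122653625) had 1088 tags in MR49F and 1161 in LNCaP. TRIM36, a ubiquitin ligase gene (chr5:115175756-115177897), had 573 MR49F tags and 95 LNCaP tags. A region far from any gene (chr5:15356073-15357811) had 566 MR49F tags and 468 LNCaP tags. ORC5, an origin recognition complex gene (chr7:104184477-104186255), had 533 MR49F tags and 113 LNCaP tags. CEP120, a centrosome gene (chr5:123396867-123398279), had 601 MR49F tags and 139 LNCaP tags. The MR49F summit was several times as high at TRIM36, ORC5 and CEP120. The lines were closer at the PARP15 region and the region far from genes. Ranking by MR49F strength favours regions with a higher MR49F summit, and tags were not adjusted for depth. At these 6 sites the summits of the lines lay between 1 and 21 bp apart.

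Summits in shared regions stayed close to each other. Over the 19126 regions, taking the nearest pair of summits in each, the distance from the MR49F to the LNCaP summit had a median of 74 bp (72 to 75) and quartiles of 29 and 181 bp. It was within 50 bp in 39.0% of regions and within 200 bp in 77.2%, and exceeded 500 bp in 1341 regions (7.01%). The median signed shift was 2 bp. The 2 antibodies within a line gave distances of a like size, with a median of 66 bp (65 to 67) between SMARCC2 and BRG1 in MR49F and 90 bp (88 to 92) in LNCaP. Between the lines, BRG1 summits lay 100 bp (97 to 102) apart.

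The shift was small at strong peaks. With the regions divided into 5 equal groups by the LNCaP −log10 q-value, the median distance was 148 bp (141 to 156) in the weakest group and 33 bp (32 to 35) in the strongest. By MR49F strength it was 136 bp (129 to 143) and 36 bp (34 to 38). It grew with the width of the region, with a median of 59 bp in the narrowest group and 95 bp in the widest, where 18.2% of summits lay over 500 bp apart. Summits moved more at start sites. Where the LNCaP summit lay within 1 kb of a start, the median distance was 132 bp (127 to 138, 3714 regions), against 63 bp (62 to 65, 15412 regions) elsewhere. Shared regions at starts were also wider, with a median of 1288 bp, against 1160 bp inside genes and 1036 bp between genes. Their median MR49F −log10 q-value was lower, at 13.5, against 17.1 inside genes and 18.8 between genes. The parts of width and strength in the larger distances at starts were not tested. Moves near starts had no common direction along the gene. Of 2879 summits near a start that moved by over 50 bp, 1433 (49.8%, 47.9 to 51.6) lay farther downstream in MR49F.

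**Figure D3:**
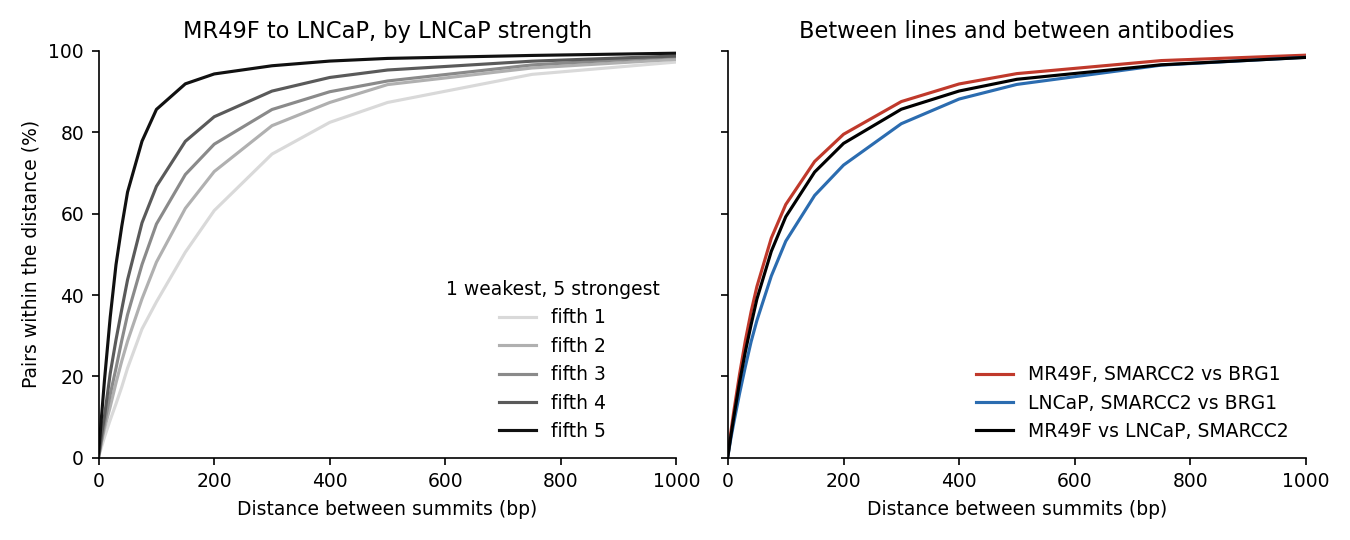
Cumulative share of summit pairs (y axis, %) within a distance (x axis, bp). Left, MR49F to LNCaP SMARCC2 summits of shared regions by LNCaP strength group, with medians from 148 bp in the weakest to 33 bp in the strongest. Right, the same distances over all shared regions (black, median 74 bp) lie between those of SMARCC2 to BRG1 within MR49F (red, 66 bp) and within LNCaP (blue, 90 bp).

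Large shifts at strong peaks were few. Among 1802 shared regions with 1 peak of each line and −log10 q-values of 20 or more in both, the largest lay in a 6277-bp region of ZBTB16 (chr11:114128077-114134353). Its MR49F summit had 73 tags and its LNCaP summit 46, and the difference in position, MR49F minus LNCaP, was -2829 bp. In FBXW11, a ubiquitin ligase gene (chr5:171953704-171959039), the summits lay 1768 bp apart with 47 tags each. Near C3orf80 the distance was 1761 bp (48 MR49F tags and 60 LNCaP tags), in ATP11B the difference was -1746 bp (52 MR49F tags and 59 LNCaP tags), and near ZNF532 the distance was 1565 bp (102 MR49F tags and 53 LNCaP tags).

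Shared regions lay at start sites more often than single-line regions did. A region was placed at a start when its midpoint lay within 1 kb of one, else inside a protein-coding gene or between genes. At starts lay 18.4% (17.95 to 18.86) of MR49F-only regions, 11.6% (10.8 to 12.4) of LNCaP-only regions and 23.3% (22.7 to 23.9) of shared regions. Inside genes lay 43.2% of MR49F-only, 54.0% of LNCaP-only and 46.6% of shared regions. The rest lay between genes, with 38.4% of MR49F-only, 34.4% of LNCaP-only and 30.1% of shared regions. The lower share of LNCaP-only regions at starts turned round at equal list lengths, where 15.9% of MR49F-only and 18.9% of LNCaP-only regions lay there. The LNCaP-only class then also holds regions whose MR49F peak was dropped with the weaker MR49F peaks, and grows from 5876 to 11221 regions. Single-line regions at starts differed in width, with a median of 762 bp for MR49F-only and 510 bp for LNCaP-only, although away from starts the medians lay closer, with 628 bp (MR49F-only) and 536 bp (LNCaP-only) inside genes.

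Start windows under a SMARCC2 region were richer in GC than those under none, in all 3 classes. Among 22078 start windows of 15743 genes, each from 250 bases before to 50 after a start, 2995 (13.6%) lay under an MR49F-only region, 254 (1.15%) under a LNCaP-only region, 4031 (18.3%) under a shared region and 14798 under none. The median GC content was 68.3% (MR49F-only), 66% (LNCaP-only) and 69.7% (shared), against 59% in windows with no region. A GC box stood in 74.5% (72.9 to 76.1) of MR49F-only, 69.3% (63.4 to 74.6) of LNCaP-only and 75.9% (74.6 to 77.2) of shared windows, and in 56.3% of all windows. TATAAA was found in 4.54% of MR49F-only, 6.30% of LNCaP-only and 4.79% of shared windows, and in 9.50% of all. The forkhead motif was in 2.20% (1.74 to 2.79) of MR49F-only and 5.51% (3.31 to 9.04) of LNCaP-only windows (14 of 254) and in 2.85% of all windows. The AP-1 motif TGANTCA stood in 3.97% of MR49F-only, 5.51% of LNCaP-only and 6.16% of all windows, and AGAACA in 6.71% of MR49F-only, 6.69% of LNCaP-only and 11.8% of all windows. Letters were searched on both strands, none of the 13 motifs contains another, GC content differs between the sets, and its part in the motif shares was not tested.

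The forkhead motif and the CTCF core were the 2 of the 13 motifs whose MR49F-only and LNCaP-only intervals did not overlap, both with the lower share in MR49F-only windows. The CTCF core was in 4.14% (3.48 to 4.91) of MR49F-only, 7.87% (5.15 to 11.8) of LNCaP-only (20 of 254) and 5.05% of all windows. The CCAAT box stood in 30.6% of MR49F-only, 30.3% of LNCaP-only and 34.7% of all windows. The ETS motif CCGGAAG stood in 14.9% of MR49F-only, 14.6% of LNCaP-only and 12.8% of all windows. For the E-box CACGTG, bound by MYC among others, the shares were 9.78% of MR49F-only, 9.84% of LNCaP-only and 8.32% of all windows. AAGATGG, the YY1 motif, was in 5.58% of MR49F-only, 4.72% of LNCaP-only and 6.05% of all windows. GCGCATG, the NRF1 motif, was in 5.08% of MR49F-only, 7.09% of LNCaP-only and 5.23% of all windows, and the CREB motif TGACGTC in 4.67%, 7.09% and 4.07% of these sets. The GATA motif was in 3.64% of MR49F-only, 5.51% of LNCaP-only and 7.93% of all windows.

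MR49F-only regions had close neighbours of their own class more often than LNCaP-only regions did. A neighbour of the same class lay within 12500 bp of 38.9% (38.4 to 39.5) of MR49F-only, 16.1% (15.2 to 17.0) of LNCaP-only and 34.4% (33.8 to 35.1) of shared regions. The classes differ in number of regions, and the part of that number in this share was not tested. At equal list lengths the order turned round, with 20.6% of MR49F-only and 24.9% of LNCaP-only regions having such a neighbour. The LNCaP-only class then also holds regions whose MR49F peak was dropped. Groups of 5 or more regions numbered 151 for MR49F-only and 6 for LNCaP-only regions. The median gap between successive regions of a class was 47.4 kb for MR49F-only, 211 kb for LNCaP-only and 60.1 kb for shared regions. LNCaP-only regions seldom lay far from MR49F binding. The nearest MR49F summit was over 100 kb away for 6.42% of them, while 19.6% of MR49F-only regions had no LNCaP summit within 100 kb. A region of the opposite single-line class lay within 12500 bp of 6.996% of MR49F-only and 28.6% of LNCaP-only regions. The MR49F list is the longer and the MR49F-only class the larger, which bears on both of these comparisons. The part of these lengths was not tested.

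The largest MR49F-only group lay over IGF1R, the gene of the insulin-like growth factor receptor. It held 19 regions in 122 kb (chr15:98657543-98779930) with 1 shared region among them and no LNCaP-only region. Its summits had 12 to 39 tags, with a median of 29, and 16 of the 19 had an MR49F BRG1 peak and 3 a LNCaP BRG1 peak. In KDM6A, the X-linked histone H3K27 demethylase gene, 13 regions lay in 48.4 kb (chrX:44942223-44990640), where the local background ratio was 1.56. CASZ1, a zinc finger factor gene, had 12 regions in 34.6 kb (chr1:10665747-10700344) with no shared region among them, summits of 14 to 86 tags, and a local background ratio of 1.02. Groups of 11 regions lay near RND3, a small GTPase gene (34.0 kb, summits of 12 to 94 tags), over STXBP5, the tomosyn gene (63.1 kb, 12 to 36 tags) and over LOC124905135, an uncharacterised gene (50.6 kb, 13 to 29 tags). The local background ratio was 1.00 at IGF1R, 1.10 at RND3, 0.858 at STXBP5 and 0.969 at LOC124905135. At equal list lengths 9 of the 19 IGF1R peaks, 3 of the 13 in KDM6A, 4 of the 12 in CASZ1, 4 of the 11 each at RND3 and STXBP5, and 0 of the 11 at LOC124905135 were still in the MR49F list.

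The largest LNCaP-only group lay over PPP3CA, a calcineurin catalytic subunit gene. It held 8 regions in 37.2 kb (chr4:101302116-101339348) with summits of 17 to 26 tags, and 4 shared and 2 MR49F-only regions lay among them. Inside NCAM2, a neural cell adhesion gene, 7 regions filled 22.7 kb (chr21:21178941-21201665) with no other region among them and summits of 19 to 41 tags. Inside NAALADL2, 7 regions filled 24.1 kb (chr3:175073002-175097118) with summits of 22 to 46 tags. Over TBL1XR1, a gene of the NCoR corepressor complex, 7 regions lay in 33.9 kb (chr3:177129308-177163241) with 3 shared regions among them and summits of 20 to 33 tags. LNCaP BRG1 peaks lay on all 8, all 7, all 7 and 6 of the 7 regions of these groups, and MR49F BRG1 peaks on 1 region, at TBL1XR1. The local background ratio was 0.819 to 0.858 in these 4 groups. The other 2 groups, of 5 regions each, lay where it was above 1. They were inside LIMCH1 (summits of 20 to 39 tags, ratio 1.08) and over EPHA3 (ratio 1.04, summits of 17 to 33 tags), and LNCaP BRG1 peaks lay on all 5 and on 3 of their regions. The part of the background in the missing MR49F peaks was not tested.

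Genes with more MR49F-only than LNCaP-only regions were common. Each region was counted at the gene whose end lay nearest to it, up to 100 kb away, with both ends of every gene used. This placed 41373 regions (77.6%). Of 20037 genes, 9470 (47.3%) had more MR49F-only regions and 1278 (6.38%) more LNCaP-only regions, 8262 (41.2%) had a shared region and 6190 (30.9%) had no region. MR49F-only regions and no LNCaP peak region stood at 4454 genes (22.2%), and the reverse held at 527 genes (2.63%). At equal list lengths 4016 genes had more MR49F-only and 4241 more LNCaP-only regions.

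KDM6A had the most MR49F-only regions, 36, with 1 LNCaP-only and 13 shared regions, in the X-linked window of raised background. CASZ1 had 21 MR49F-only, 0 LNCaP-only and 7 shared regions. GRB10, an adaptor gene of insulin and IGF1 receptor signalling, had 20 MR49F-only, 0 LNCaP-only and 8 shared regions. IGF1R and LOC124905135 had 17 MR49F-only regions each and no LNCaP-only region, with 7 and 9 shared regions. MAOA, the monoamine oxidase A gene in the same X-linked window, had 17 MR49F-only, 0 LNCaP-only and 3 shared regions, and STXBP5 had 17 MR49F-only, 1 LNCaP-only and 2 shared. ZBTB16, with 16 MR49F-only, 5 LNCaP-only and 16 shared regions, was dense in every class. NEDD4L, a ubiquitin ligase gene, had 15 MR49F-only, 2 LNCaP-only and 7 shared regions, and PMEPA1 had 14 MR49F-only, 0 LNCaP-only and 5 shared. The excess shrank at equal list lengths, to 4 MR49F-only and 3 LNCaP-only regions at KDM6A, 9 and 2 at GRB10, 9 and 1 at MAOA, 7 and 3 at CASZ1, 7 and 1 at STXBP5, and 6 and 3 at IGF1R. Of the 10 genes, those that then had fewer MR49F-only than LNCaP-only regions were LOC124905135, with 3 MR49F-only and 6 LNCaP-only regions, and ZBTB16, with 6 MR49F-only and 9 LNCaP-only.

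TBL1XR1 had the most LNCaP-only regions, 18, beside 5 MR49F-only and 13 shared regions. This order rests on assignment to the nearest gene end. With gene spans extended by 10 kb there were 2 MR49F-only and 16 LNCaP-only regions at TBL1XR1, 4 and 25 at NCAM2, and 6 and 24 at NAALADL2. PPP3CA had 9 MR49F-only, 12 LNCaP-only and 21 shared regions, NCAM2 had 3 MR49F-only, 11 LNCaP-only and 4 shared, and PPP2R2A, a phosphatase 2A regulatory gene, had 2 MR49F-only, 8 LNCaP-only and 7 shared. EPHA3, an ephrin receptor gene, and LIMCH1, an actomyosin regulator gene, had 7 LNCaP-only regions each, but also 9 MR49F-only regions each. The remaining 4 genes of this group had 6 LNCaP-only regions, as did 5 genes left out by the rule for ties (SOX9, NFIA, KCNN2, XXYLT1 and PRKD1). Among them ATP2C2, a secretory pathway calcium pump gene, FGGY, a carbohydrate kinase gene, and LOC128462377 had 3 MR49F-only regions each, and KMT2E, a SET domain gene, had 2. ATP2C2 and LOC128462377 lay in a window of chromosome 16 with a local background ratio of 0.554. Shared regions were most numerous at LIMCH1 and PPP3CA (21 each), PRKD1, a kinase gene (18), and GRHL2, an epithelial grainyhead factor gene, and ZBTB16 (16 each).

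**Figure D4:**
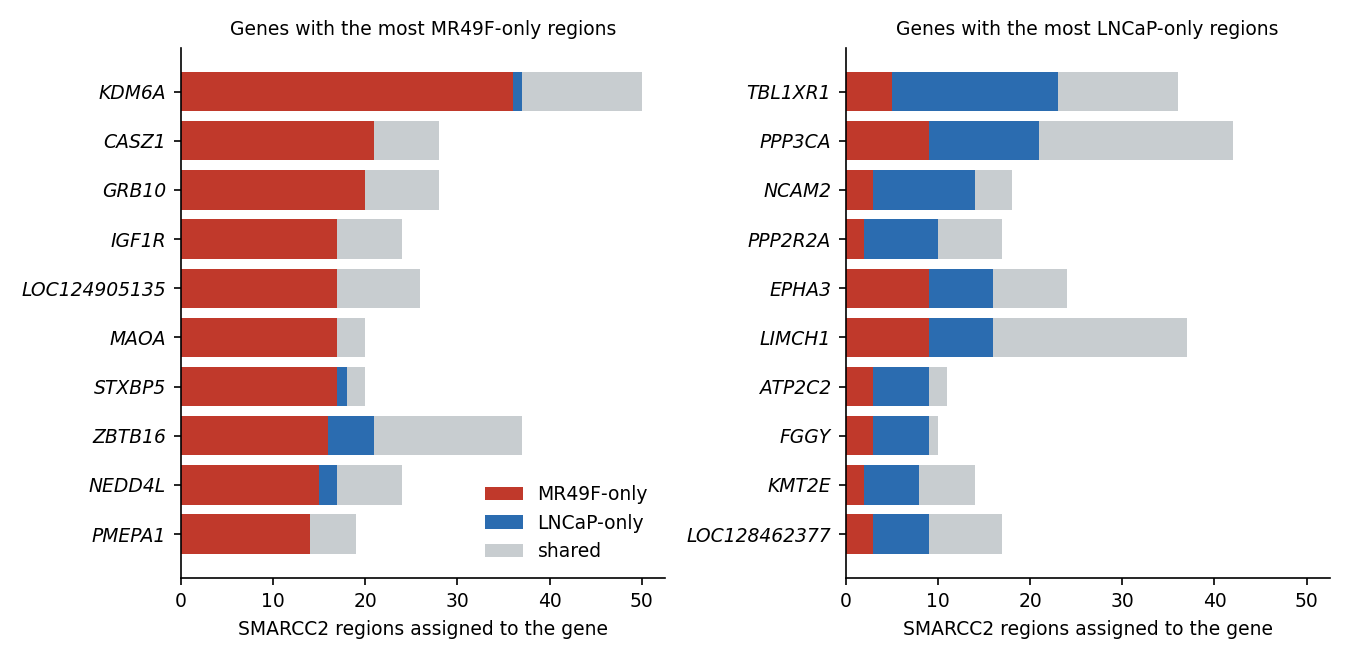
SMARCC2 regions assigned to a gene (x axis, number) for the 10 genes with the most MR49F-only regions (left) and 10 with the most LNCaP-only regions (right, where 5 more genes tie with the last 4 at 6 regions), stacked as MR49F-only (red), LNCaP-only (blue) and shared (grey). KDM6A leads with 36 MR49F-only regions and TBL1XR1 with 18 LNCaP-only regions, and every gene on the right also has MR49F-only regions.

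Genes of the androgen response carried many regions of both kinds of single-line class. Of 32 genes, 25 (78.1%) had more MR49F-only and 5 (15.6%) more LNCaP-only regions, against 47.3% and 6.38% of all genes, and the median difference per gene was 3 regions against 0 over all genes. Their regions were 138 MR49F-only, 26 LNCaP-only and 105 shared. MR49F-only regions were thus 84.1% (77.8 to 88.9) of the single-line ones, close to the 82.5% over all genes. TMPRSS2, the protease gene, had 10 MR49F-only, 0 LNCaP-only and 5 shared regions, and FKBP5 had 8 MR49F-only, 0 LNCaP-only and 2 shared. KLK3, which encodes PSA, had 3 MR49F-only, 0 LNCaP-only and 2 shared. KCNN2, a potassium channel gene, had 4 MR49F-only and 6 LNCaP-only regions. Luminal prostate genes (18) had 49 MR49F-only, 9 LNCaP-only and 70 shared regions. Their shared part was 54.7% of regions, against 37.2% over all genes. EHF had 7 MR49F-only, 0 LNCaP-only and 7 shared regions, and STEAP2, a metalloreductase gene, had 0 MR49F-only, 3 LNCaP-only and 6 shared.

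Steroid metabolism was the list with the highest MR49F part. Its 17 genes of steroid metabolism had 28 MR49F-only, 0 LNCaP-only and 16 shared regions, so that MR49F-only regions were 100% (87.9 to 100) of the single-line ones, against 82.5% over all genes. AKR1D1, which inactivates steroids, had 7 MR49F-only and 2 shared regions, and HSD3B1 and SRD5A2, which make active androgens, had 4 MR49F-only regions each. Of the 22 genes of steroid and nuclear receptors, 18 (81.8%) had more MR49F-only and 1 (4.55%) more LNCaP-only regions, against 47.3% and 6.38% of all genes. They had 72 MR49F-only and 14 LNCaP-only regions in all (83.7%, 74.5 to 90.05), an interval that includes the 82.5% over all genes. ESR1, the oestrogen receptor gene, had 1 MR49F-only and 2 LNCaP-only regions. The 15 genes of the glucocorticoid receptor and its targets had 56 MR49F-only and 14 LNCaP-only regions (80.0%, 69.2 to 87.7). NR3C1, the receptor gene itself, had no region assigned, while KLF9, a target gene, had 8 MR49F-only and 1 LNCaP-only.

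Of the lists for other lineages and states, the basal list had an interval below the MR49F part over all genes, and the neuroendocrine and mesenchymal lists did not. The 22 neuroendocrine genes had 34 MR49F-only, 4 LNCaP-only and 13 shared regions (89.5% MR49F-only, 75.9 to 95.8, against 82.5% over all genes). Of these genes 16 (72.7%) had more MR49F-only and 0 more LNCaP-only regions, against 47.3% and 6.38% of all genes, with ONECUT2, a homeodomain factor gene, having 5 MR49F-only regions and no LNCaP-only region. CHGA, INSM1 and SRRM4 had no region in either line. The 18 basal and stem-like genes had 31 MR49F-only, 17 LNCaP-only and 23 shared regions (64.6%, 50.4 to 76.6), and with gene spans extended by 10 kb their MR49F part was 68.4%, against 83.1% over all genes. SOX9, a progenitor factor gene, had 3 MR49F-only and 6 LNCaP-only regions, so 6 of the 17 LNCaP-only regions of this list lay at a single gene. The intervals count regions of a gene as separate, and the list without SOX9 was not tested. LGR4, a Wnt receptor gene, had 5 MR49F-only and 0 LNCaP-only regions, and KRT5 and KRT14 had none in either line. The 18 mesenchymal genes had 25 MR49F-only and 5 LNCaP-only regions (83.3%, 66.4 to 92.7). FN1, the fibronectin gene, had 6 MR49F-only and 0 LNCaP-only regions, and ZEB2, a repressor of epithelial genes, had 0 MR49F-only and 2 LNCaP-only.

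Signalling and regulator lists had shares whose intervals include the 82.5% of all genes. Receptor kinases and survival genes (23) had 87 MR49F-only and 13 LNCaP-only regions (87.0%, 79.0 to 92.2), led by GRB10 and IGF1R, while FGFR2 had 1 MR49F-only and 2 LNCaP-only. AP-1 factors (15) had 27 MR49F-only and 5 LNCaP-only regions (84.4%), with 8 MR49F-only and 0 LNCaP-only at JDP2, a repressor of AP-1, and 0 MR49F-only and 2 LNCaP-only at BATF3. Genes of the YAP and TEAD pathway (16) had 37 MR49F-only and 11 LNCaP-only regions (77.1%), among them AMOTL1, an angiomotin gene, with 8 MR49F-only and 1 LNCaP-only, and WWTR1, the TAZ gene, with 1 MR49F-only and 2 LNCaP-only. Wnt pathway genes (21) had 36 MR49F-only and 7 LNCaP-only regions (83.7%), with 5 MR49F-only and 1 LNCaP-only at ZNRF3 and 1 MR49F-only and 2 LNCaP-only at RNF43, both genes of Wnt receptor ubiquitin ligases. Cell cycle and MYC genes (18) had 30 MR49F-only and 6 LNCaP-only regions (83.3%). MYC had 9 MR49F-only and 1 LNCaP-only region, and CDK6 had 0 MR49F-only and 3 LNCaP-only.

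The 31 SWI/SNF subunit genes had 55 MR49F-only, 10 LNCaP-only and 36 shared regions (84.6%). BCL11B had 6 MR49F-only and 0 LNCaP-only regions, SMARCA2, the BRM gene, had 4 MR49F-only and 3 LNCaP-only, SMARCA4 had 2 MR49F-only and 0 LNCaP-only, and SMARCC2 itself had 1 MR49F-only region. Housekeeping genes (16) had 23 MR49F-only and 3 LNCaP-only regions (88.5%, 71.0 to 96.0), YWHAZ having 8 MR49F-only and 1 LNCaP-only. Lists of other tissues held few regions. Hepatocyte and muscle genes (14) had 7 MR49F-only and 3 LNCaP-only regions, 2 of the MR49F-only ones at ALB, the albumin gene. Leukocyte genes (12) had 3 MR49F-only and 2 LNCaP-only, and fibroblast genes (11) had 6 MR49F-only and 3 LNCaP-only, with 2 MR49F-only at FAP.

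The MR49F part of every list was lower at equal list lengths, when it was 48.7% over all genes. It was then 81.8% for steroid metabolism, 61.5% for AP-1 factors, 60.4% for the glucocorticoid receptor and its targets, and 59.7% for receptor kinases and survival genes. Values near that of all genes were found for mesenchymal (52.6%), neuroendocrine (52.4%), androgen response (50.5%), steroid and nuclear receptor (47.2%), luminal prostate (46.2%) and housekeeping genes (45.0%), for SWI/SNF subunits (44.7%) and for cell cycle and MYC genes (44.0%). The YAP and TEAD pathway had 41.4%, the Wnt pathway 31.25% and the basal and stem-like list 24.1%. The lists of other tissues, with few regions, had 50% (hepatocyte and muscle, and fibroblast) and 25% (leukocyte). With gene spans extended by 10 kb, steroid metabolism was again the highest (96.0%), and hepatocyte and muscle genes (57.1%) were below the basal list.

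BRG1 lay on most single-line SMARCC2 regions in the same line, and on far fewer of them in the other line. Of MR49F-only SMARCC2 regions, 66.7% (66.1 to 67.2) had an MR49F BRG1 peak and 26.0% (25.5 to 26.5) a LNCaP BRG1 peak. Of LNCaP-only regions, 22.8% (21.7 to 23.9) had an MR49F BRG1 peak and 62.5% (61.2 to 63.7) a LNCaP BRG1 peak. Shared regions had BRG1 in MR49F at 89.4% and in LNCaP at 86.0%. Regions with BRG1 were wider, with medians of 752 bp with and 489 bp without MR49F BRG1 among MR49F-only regions. Among LNCaP-only regions they were 579 bp with and 465 bp without LNCaP BRG1. A wider region is also more likely to meet a BRG1 peak, and the part of this was not tested. At start sites 86.9% of MR49F-only regions had MR49F BRG1 and 68.6% of LNCaP-only regions had LNCaP BRG1. Whether a common input raised both antibodies of a line at the same places was not tested.

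Chromosomes differed in their balance, and so did their local background. The share of MR49F-only regions was 77.5% on chromosome X, where 1324 of 1709 regions were MR49F-only and 32 (1.87%) LNCaP-only, and the background of MR49F over LNCaP was 1.35 times the autosomal level. On the autosomes the share of MR49F-only regions lay between 45.7% (chromosome 6, background ratio 0.858) and 65.2% (chromosome 18, ratio 1.18). The share did not follow the ratio on every chromosome, since 63.3% of regions were MR49F-only on chromosome 19 at a ratio of 0.804, and 56.9% on chromosome 13 at 0.751. Chromosome 21 had the highest share of LNCaP-only regions, 17.5%, at a ratio of 0.858. In windows of 10 Mb with a ratio under 0.8 there were 3.03 MR49F-only regions per LNCaP-only region, with 12.6 where the ratio was above the inverse of 0.8 and 4.52 in the windows between. Without chromosome X and the windows outside this range, 24040 MR49F-only, 5371 LNCaP-only and 17075 shared regions were counted. The copy number of these segments was not measured.

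**Figure D5:**
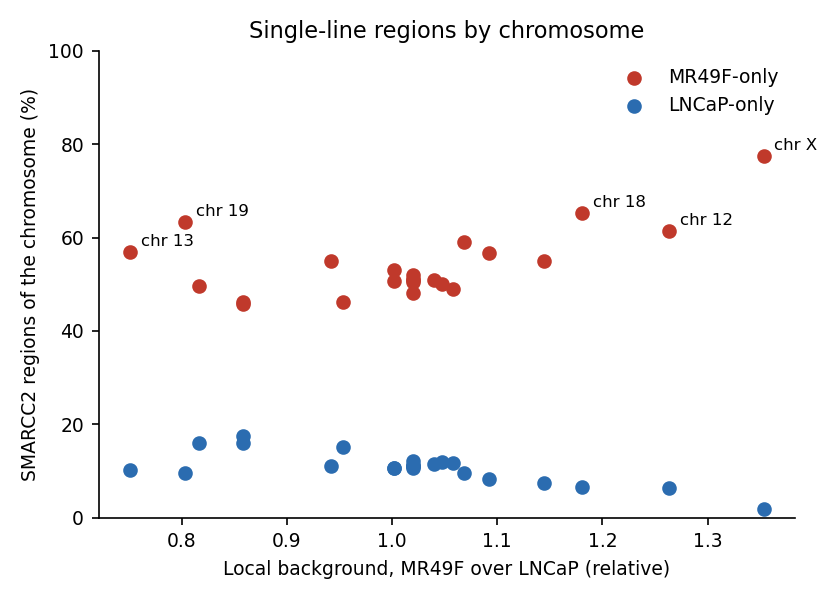
Share of the SMARCC2 regions of each chromosome (y axis, %) that were MR49F-only (red) or LNCaP-only (blue), against the median local background of MR49F peaks over that of LNCaP peaks, each relative to its autosomal median (x axis). Chromosome X lies at the upper right, with 77.5% MR49F-only regions at a ratio of 1.35. Points are 1 library per line.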

How the data were processed

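SMARCC2 and BRG1 ChIP-seq peak lists of MR49F and LNCaP cells were used, 1 library per line and antibody. BWA 0.7.10, SAMtools, MACS2 2.1.0 and the build hg38 are named, without roles, per the submitters' processing notes. For control input, duplicate handling and read filters, nothing was given in the sources used here. The deposited fold over local background, −log10 p-value, −log10 q-value (lowest 2.00, a q-value of 0.01) and display score of each peak come from the authors and served within a list only, apart from the estimate of depth and local background. The score was not used further. Read totals were not given in the sources used here, so depth is known only by estimate, from fold and p-value. Summits had 14 to 76 tags (5th to 95th percentile) in MR49F and 18 to 60 in LNCaP.

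Overlaps, widths, summit positions and counts were computed with Python 3.11.15, NumPy 2.4.6, pandas 2.3.3 and SciPy 1.17.1, and plots with matplotlib 3.10.9. Whole tags and background at each summit were solved from fold and p-value, and were tested on simulated peaks. Local background was the median over peaks in windows of 10 Mb with at least 10 peaks per list, relative to the autosomal median of the list, and MR49F was divided by LNCaP. Start sites and promoter sequences came from RefSeq tables (GRCh38.p14), which held starts for 15842 of 20037 protein-coding genes. For the other 4195, chromosome 8 included, both gene ends served as starts. Assignment of regions to genes used both ends of every gene. Wilson 95% intervals are given for shares and order-statistic intervals for medians.

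The regions and the 18 gene lists were chosen with earlier results of these data known. The named genes are those with the most regions of each class (10, 10 and 5), those at the 5 strongest regions and 3 largest groups of each single-line class, and the top gene of each list and direction with at least 2 regions. A gene that this rule names is not reported here. HSD3B1, SRD5A2, TMPRSS2, KLK3, KLF9, NR3C1, CHGA, INSM1, SRRM4, KRT5, KRT14, SMARCA4, RND3, C3orf80, ATP11B, FBXW11 and ZNF532, the genes at shared or broad regions, and the listed members FKBP5 and SMARCC2 were added after their values were seen. Alternatives changed the overlap rule, the q-value minimum, the MR49F list length (its 25706 highest q-values, called equal list lengths), the distances and the gene assignment.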

Additional observations from a re-analysis of the deposited data

How the results depend on the processing

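No paired analysis was possible because each line had a single library for each antibody, and for the same reason no library could be left out. With a reciprocal overlap of 50%, LNCaP-only regions numbered 12981 and shared regions 12725, and 26.7% of MR49F peaks and 49.5% of LNCaP peaks had a partner. Joining summits within 200 bp gave 10928 LNCaP-only regions. With −log10 q-values of 5 or more, 34.8% of MR49F and 78.3% of LNCaP peaks had a partner, median widths were 726 bp (MR49F-only), 602 bp (LNCaP-only), and 1041 bp (MR49F) and 786 bp (LNCaP) in shared regions, and the summit shift was 59 bp. BRG1 was then at 66.0% (MR49F) and 21.6% (LNCaP) of MR49F-only, 18.9% (MR49F) and 60.2% (LNCaP) of LNCaP-only, and 88.1% (MR49F) and 81.8% (LNCaP) of shared regions. Counting only BRG1 summits inside the region gave 58.6% (MR49F) and 21.6% (LNCaP) of MR49F-only, 15.96% (MR49F) and 47.7% (LNCaP) of LNCaP-only, and 86.4% (MR49F) and 82.3% (LNCaP) of shared regions. With equal list lengths there were 11814 MR49F-only and 11221 LNCaP-only regions, and 54.0% of MR49F and 56.3% of LNCaP peaks had a partner. Median widths were then 815 bp (MR49F-only), 570 bp (LNCaP-only), and 1122 bp (MR49F) and 754 bp (LNCaP) in shared regions. A same-class neighbour stood by 20.6% of MR49F-only, 24.9% of LNCaP-only and 27.6% of shared regions, starts held 15.9%, 18.9% and 21.8% of these classes, and 4016 genes had more MR49F-only and 4241 more LNCaP-only regions. The fewer MR49F peaks follow from the construction of this alternative, which also counts a region as LNCaP-only when its MR49F peak was dropped. Neighbours within 5 kb stood by 23.3% of MR49F-only, 9.17% of LNCaP-only and 19.4% of shared regions, and within 25 kb by 55.6%, 23.8% and 49.4%. Within 5 kb of a start lay 26.6% of MR49F-only, 19.7% of LNCaP-only and 31.3% of shared regions. When the promoter window had to hold a summit, the GC box was in 71.1% of MR49F-only, 72.7% of LNCaP-only and 66.5% of shared windows. For the named genes, the difference MR49F-only minus LNCaP-only turned round at equal list lengths for CCNL1 (-2), EFR3A (-1), EPHA3 (-5), GRHL2 (-1), LIMCH1 (-8), LOC124905135 (-3), PRKD1 (-11), SMARCA2 (-1), WWC1 (-1), ZBTB16 (-3), ZNF277 (-2) and ZNRF3 (-3). It turned round with gene spans extended by 10 kb for EPHA3 (-9), ESR1 (3), FGFR2 (1), IQUB (-1), LIMCH1 (-2), SMARCA2 (-1) and ZNF277 (-1), and with gene ends within 10 kb for FGGY (1), IQUB (-1) and KCNN2 (1). The cause of these changes was not tested. The lowest called summits rest on 10 tags in MR49F and 14 in LNCaP, and binding below the caller's threshold was not detectable at this depth.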
